A study of Mus musculus with 18 samples.

Results

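The 9 neighboring genes of mouse chromosome 8, Elmod2, Scoc, Tecr, Dnajb1, Gipc1, Ddx39, Adgre5, Asf1b and Prkaca, were followed through mammary tumors of 3 engineered genotypes and through normal mammary gland. They were picked by name because neighbors in this stretch had been seen to be raised together in some tumors with T121 and Trp53 loss, so the levels in those tumors chose the genes and are given here as a description with no test. The 9 are among 55450 genes in the count table, and all 9 passed the filter on low counts together with 19186 genes in all. P/Rbf tumors 287845 and 287822 stood apart: all 9 genes were higher there than in each of the 13 libraries of the other groups, with a median log2 difference of 3.72 in 287845 and 2.58 in 287822.

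The libraries came from female C57Bl/6 mice, each with a number of its own. The labels do not say whether any of the mice were related. Of the tumors 5 were B1/P/Rbf (Brca1fl/fl, Trp53fl/fl and the TgK18GT121 transgene), 5 were B1/P (Brca1fl/fl and Trp53fl/fl without the transgene), 5 were P/Rbf (Trp53fl/fl and the transgene, with Brca1 not floxed) and 3 libraries were wild type normal gland. All tumors thus share Trp53 loss, which was started by Cre from an adenovirus injected into the mammary ducts of adult females. T121 is a fragment of the SV40 large T antigen driven by the keratin 18 promoter, so it is made in epithelial cells, where it binds pRb, p107 and p130, the Rb family (Rbf). The study reports Cre events in ductal epithelial cells, seen by T121 staining in mice with the transgene. Each tumor is bulk tissue with its own stroma.

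Library depth was 27661173 to 37794889 counts, with a median of 33802254.5. In the tumors Trp53 had 6.75 to 24.3 CPM (counts scaled to the library total) in the 3 groups against 54.4 to 71.8 in the glands. Brca1 had medians of 27.8 CPM in B1/P/Rbf and 10.9 in B1/P against 66.5 in P/Rbf tumors and 5.75 in glands, and gene totals also count exons outside the floxed part. The gland libraries held summed adipocyte markers of 9182 to 13247 CPM and skeletal muscle markers of 20489 to 40205 CPM, against at most 172 and 553 CPM in any tumor. They also held more lymphocyte markers (B cell 278 to 365 CPM against at most 5.45 in any tumor, T cell 122 to 177 against at most 12.1), while the 14 listed proliferation genes summed to 340 to 360 CPM against 1512 to 5320 in tumors. The part of these differences in the gland comparisons, those of Adgre5 and Asf1b included, was not tested.

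Prkaca encodes a catalytic subunit of protein kinase A (PKA). At rest the catalytic subunits sit in a complex with regulatory subunits; cyclic AMP binds the regulatory subunits and frees the kinase, which phosphorylates many proteins, among them the transcription factor CREB. The other genes are neighbors with separate jobs: Asf1b is a histone H3-H4 chaperone of dividing cells, Ddx39 an RNA helicase of mRNA export, Dnajb1 an HSP40 co-chaperone of HSP70, Tecr the last enzyme of the very-long-chain fatty acid elongation cycle, Gipc1 a PDZ adaptor that links membrane receptors to myosin VI, Adgre5 (CD97) an adhesion receptor known from leukocytes, Elmod2 a GTPase-activating protein for ARL2-type small GTPases and Scoc a Golgi coiled-coil protein. In human fibrolamellar liver cancer a deletion joins DNAJB1 to PRKACA. Gene totals as used here do not show fusion transcripts.

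The genes span 684 kb, chr8:83312632-83996443 of GRCm38, from Elmod2 to Prkaca. Prkaca lies at chr8:83972993-83996443 on the plus strand and Asf1b ends just before it, at chr8:83955507-83970197 on the same strand. Tecr (chr8:83571698-83607971, minus strand) and Dnajb1 (chr8:83608193-83612653, plus strand) stand head to head. Gipc1 (chr8:83652677-83664694) and Ddx39 (chr8:83715177-83726892) are on the plus strand, while Adgre5 (chr8:83723251-83741326), Elmod2 (chr8:83312632-83332486) and Scoc (chr8:83430084-83458391) are on the minus strand. Ddx39 and Adgre5 run toward each other and share 3642 bases, 895 of them exonic in both, so where counting ignored strand their reads could not be told apart there.

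The stretches before 4 of the start sites are shown because these genes moved together. RefSeq promoter entries (GRCm38.p6) matched 6 of the 9 genes (Elmod2, Scoc, Tecr, Dnajb1, Asf1b and Prkaca). Capitals mark the letters CCAAT and those of the GC box GGGCGG, read on either strand. They hold 9 entries, since Scoc, Dnajb1 and Prkaca have a second start, and for Dnajb1 and Prkaca the first of the 2 is shown. For Prkaca these are the 250 bases before that start, chr8:83972728-83972977, plus strand. The Dnajb1 stretch is chr8:83607925-83608174, plus strand, and the Tecr stretch chr8:83594492-83594741, minus strand. That RefSeq start of Tecr lies inside the gene as annotated above, so the stretch is not the one facing Dnajb1. Of Asf1b the first 63 bases of the window are given, chr8:83955444-83955506, plus strand.
Prkaca: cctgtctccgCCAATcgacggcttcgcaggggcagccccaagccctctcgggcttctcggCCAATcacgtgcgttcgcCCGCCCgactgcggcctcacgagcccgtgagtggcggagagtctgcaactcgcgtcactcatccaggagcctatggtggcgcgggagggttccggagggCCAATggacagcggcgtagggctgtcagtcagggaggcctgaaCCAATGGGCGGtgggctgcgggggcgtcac
Dnajb1: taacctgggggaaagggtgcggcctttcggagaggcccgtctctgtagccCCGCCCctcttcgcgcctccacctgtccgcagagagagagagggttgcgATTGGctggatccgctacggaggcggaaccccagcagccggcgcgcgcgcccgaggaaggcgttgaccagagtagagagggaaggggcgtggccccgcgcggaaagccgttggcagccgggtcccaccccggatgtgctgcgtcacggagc
Tecr: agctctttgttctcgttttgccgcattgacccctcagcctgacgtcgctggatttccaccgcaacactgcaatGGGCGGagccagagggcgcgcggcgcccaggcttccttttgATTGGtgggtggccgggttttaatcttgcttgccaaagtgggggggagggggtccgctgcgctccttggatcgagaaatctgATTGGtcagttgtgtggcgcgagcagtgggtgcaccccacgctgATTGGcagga
Asf1b: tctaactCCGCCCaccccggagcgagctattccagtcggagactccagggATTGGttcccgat

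Searched on both strands over 300 bases around the start, 6 of the 9 entries held CCAAT and 6 held GGGCGG, letters found in 37.4% and 35.7% of all 32851 promoter entries. The entries without CCAAT were the first of Scoc and the second of Dnajb1 and of Prkaca. The cyclic AMP response element TGACGTCA (1.79% of entries), the E2F letters TTTCCCGC (1.07%), TTTGGCGC (0.514%) and TTTCGCGC (0.323%) and the heat shock element (0.603%) were in 0 of the 9. The cell cycle element TTTGAA (17.9%) was in 2 entries, that of Asf1b and the second of Prkaca. The ETS letters CCGGAAGT (3.89%) were in 1, that of Elmod2, and the NRF1 motif (4.6%) in 1, the second of Dnajb1. The TTTGAA and NRF1 letters lie outside the stretches printed here. These matches describe the letters of the windows only.

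Prkaca was at 70.5, 79.8, 66.2, 97.6 and 70.4 CPM in the B1/P/Rbf tumors, and at 55.4, 86.0, 72.6, 110 and 88.2 CPM in the B1/P tumors. In the P/Rbf tumors it was at 75.4 (287842), 846 (287845), 77.3 (290860), 698 (287822) and 97.4 CPM (290845). The glands had 150, 165 and 170 CPM. The P/Rbf group thus splits: 3 tumors lie within the range of the 10 other tumors, and 287845 and 287822 lie 11.1-fold and 9.17-fold above the median of those 10, also far above the glands. In bulk tissue more cells that express a gene and more RNA per cell cannot be told apart, here or in any value that follows.

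Asf1b, the neighbor next to Prkaca, had the largest rise in 287822 and, after Adgre5, the second in 287845. The B1/P/Rbf tumors had 36.4, 47.9, 48.2, 54.9 and 54.1 CPM and the B1/P tumors 15.5, 27.7, 30.5, 35.2 and 31.0. The P/Rbf tumors had 35.5 (287842), 1079 (287845), 64.3 (290860), 660 (287822) and 68.2 CPM (290845), and the glands 5.20, 6.45 and 7.04. Tumors 287845 and 287822 were 30.1-fold and 18.4-fold above the median of the 10 other tumors, 290860 and 290845 were also above all 10, and every tumor was above every gland.

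Adgre5 reached the highest CPM of the 9 genes. It was at 73.2, 80.8, 169, 126 and 106 CPM in B1/P/Rbf, at 23.9, 85.3, 42.4, 39.7 and 66.1 CPM in B1/P and at 81.1, 85.0 and 79.9 CPM in the glands. In P/Rbf it was at 166 (287842), 4277 (287845), 135 (290860), 781 (287822) and 232 CPM (290845). The 55.6-fold difference of 287845 was the largest of the 9 genes, against 10.2-fold in 287822. Because leukocytes express CD97, their markers are set beside it: Ptprc (CD45) was at 36.3 CPM in 287845 and 45.4 in 287822, within the 15.4 to 113 CPM of the 10 other tumors. The summed pan-leukocyte markers (4 genes, none at 0 in any group) were 162 and 186 CPM in these 2 tumors, against 67.9 to 89.2 in the other P/Rbf tumors, 88.9 to 240 in B1/P/Rbf, 90.3 to 498 in B1/P and 704 to 1008 in the glands.

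Ddx39 was at 90.7, 119, 91.6, 145 and 96.8 CPM in B1/P/Rbf and at 50.2, 65.5, 50.8, 85.9 and 94.0 CPM in B1/P. In P/Rbf it was at 115 (287842), 692 (287845), 156 (290860), 339 (287822) and 134 CPM (290845), and in the glands at 33.4, 42.4 and 32.4. The difference of 287845 and 287822 was the smallest of the 9 in 287845 (7.58-fold) and second smallest in 287822 (3.72-fold), and 290860 also passed all 10 other tumors. Ddx39b, its close relative on another chromosome, was at 124 and 162 CPM in 287845 and 287822, below the 174 to 370 CPM of the 10 other tumors.

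Dnajb1 reached 1038 CPM in 287845 and 320 in 287822, while the other P/Rbf tumors had 74.6 (287842), 71.4 (290860) and 78.9 CPM (290845). B1/P/Rbf tumors had 58.4 to 103 CPM, B1/P tumors 56.0 to 108 and glands 30.0 to 36.0. Its HSP70 partner Hspa8 did not follow it: 1596 and 1278 CPM in 287845 and 287822 against 1516 to 2206 in the 10 other tumors. Tecr reached 1238 CPM in 287845 and 447 in 287822, against 141 to 161 in the other P/Rbf tumors, 81.2 to 155 in B1/P/Rbf, 145 to 248 in B1/P and 208 to 246 in glands. Tecr had the smallest rise in 287822, 3.08-fold.

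Gipc1 was at 766 CPM in 287845 and 383 in 287822, with 61.9, 114 and 87.5 CPM in 287842, 290860 and 290845, and with 48.2 to 92.2 in B1/P/Rbf, 36.9 to 95.4 in B1/P and 34.2 to 35.6 in glands. Elmod2 was at 445 and 199 CPM in 287845 and 287822, and 18.2 to 52.1 CPM in the 16 others. Scoc was at 503 and 227 CPM, and 25.7 to 57.1 CPM in the 16 others. Scoc and Tecr are the genes with fractional estimated counts, in 7 and 9 libraries.

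**Figure D1:**
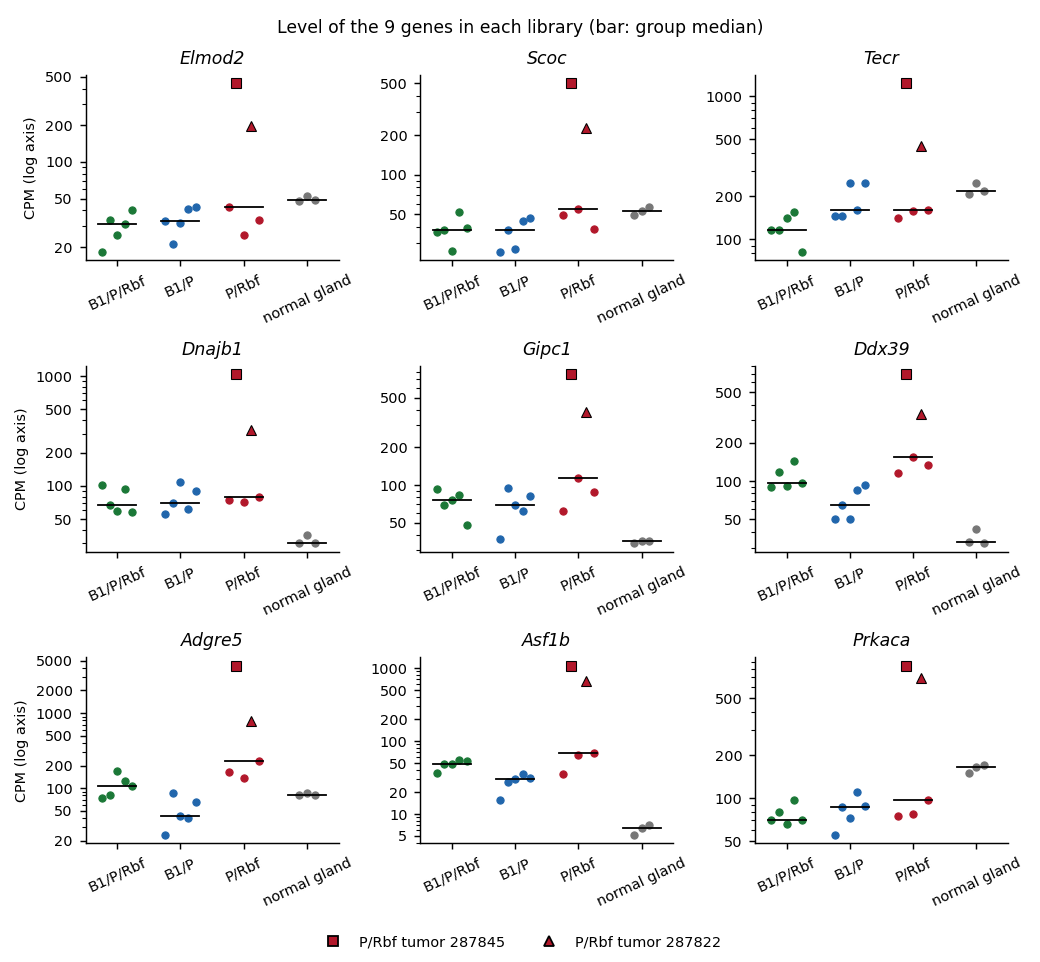
Each panel shows 1 of the 9 genes, with CPM on a log axis for every library of the 4 groups; the bar is the group median, the square P/Rbf tumor 287845 and the triangle P/Rbf tumor 287822. In all 9 panels the square is highest and the triangle second, for Prkaca at 846 and 698 CPM against at most 110 in any other tumor.

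In each library the log2 difference of a gene was taken from the median of the 10 Brca1-floxed tumors, which are the B1/P/Rbf and B1/P groups. Over the 9 genes its median was 3.72 (2.92 to 5.80) in 287845 and 2.58 (1.62 to 4.20) in 287822. The other P/Rbf tumors had medians of 0.53 (290860), 0.27 (290845) and 0.12 (287842), while medians were -0.06 to 0.44 in B1/P/Rbf, -0.56 to 0.21 in B1/P and 0.05 to 0.15 in glands. Over all genes tested the medians were -0.05 to 0.03, and over chromosome 8 they were -0.51 in 287845 and -0.21 in 287822, so neither all genes nor the whole chromosome was higher there. All 9 genes were at least 1 higher in 287845, where 11.4% of tested genes were, and all 9 in 287822, where 12.8% were. In 287842 (10.6% of tested genes) and 290845 (9.44%) Adgre5 alone was, and in 290860 (7.98%) 0 of 9. These values chose the genes, so nothing is read from the shares.

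All 9 genes were higher in 287845 than in 287822, but the gap was uneven: it was 2.45 log2 units for Adgre5, 0.71 for Asf1b and 0.28 for Prkaca. Prkaca and Asf1b, at the end of the stretch, were thus the genes in which the 2 tumors stood closest. The other 6 genes had gaps of 1.00 (Gipc1) to 1.70 (Dnajb1). This is a comparison of single libraries with no replicate.

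Between Elmod2 and Prkaca lie 16 tested genes, of 30 annotated, and 7 of them are not among the 9. Ndufb7, a subunit of respiratory complex I, was at 689 CPM in 287845 and 416 in 287822 against 31.1 to 75.7 in the 13 other tumors. Adgrl1, a latrophilin receptor, was at 1468 and 533 against 42.6 to 332. Gm10644 was at 26.9 and 18.5 CPM against at most 1.94 in the other tumors. It shares 1107 of its 2798 exonic bases with Adgrl1 on the opposite strand, so where counting ignored strand its reads could not be told from those of Adgrl1 there. Ptger1, a prostaglandin E2 receptor gene, had 4.73 and 4.90 CPM, within the 0.763 to 7.63 CPM of the 10 Brca1-floxed tumors. Clgn, a testis chaperone gene, had 0.158 and 0.0263 CPM and D830024N08Rik 0.0315 and 0.158, so both were barely expressed. Of the 16 tested genes 14 in 287845 and 15 in 287822 were at least 1 log2 unit higher, with medians of 3.60 and 2.49.

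Outside the stretch the rise was uneven. Of the 5 tested genes before Elmod2, 5 in 287845 and 3 in 287822 were at least 1 log2 unit higher (medians 1.57 and 1.86), and of the 5 after Prkaca 2 in each (medians 0.67 and 0.42). Before Elmod2, Il15 (1641 kb before the Prkaca start), a cytokine of natural killer and memory T cells, was at 73.3 and 116 CPM against 1.18 to 7.83 in the other tumors, and Zfp330 (1209 kb before) at 394 and 171 against 30.5 to 67.0. Tbc1d9 (808 kb before) had 59.7 CPM in 287845 and 135 in 287822 against 9.65 to 73.9. After Prkaca, Samd1 had 221 and 116 CPM against 36.4 to 89.9. Of the 6 remaining flank genes 2210011C24Rik was at 3.63 and 2.34 CPM (log2 differences 3.10 and 2.48) and Rnf150 at 30.0 and 12.8 CPM (1.57 and 0.34). Ucp1 (1.46 and 0.62), 1700067K01Rik (0.50 and -0.23), Palm3 (0.67 and -0.97) and Il27ra (-0.31 and 0.42) were below 2 CPM in both. Further on, the 6 genes Gm10643 to Cc2d1a had a median log2 difference of 2.80 in 287845 and -0.39 in 287822. The 26 genes Arhgap10 to Inpp4b, on the other side, had 1.43 in 287845 and -0.20 in 287822. The 38 genes Zswim4 to Orc6, further along after Cc2d1a, had -0.88 in 287845 and -0.76 in 287822. B1/P/Rbf tumor 210906 had -0.83 there without a rise of the 9 genes (median 0.05). B1/P tumors 246361 and 225068 had -0.60 and -0.51 there, with medians of -0.07 and -0.56 over the 9 genes. The remaining tumors had 0.00 to 0.34 there. The ends of these stretches were set after their values were seen.

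**Figure D2:**
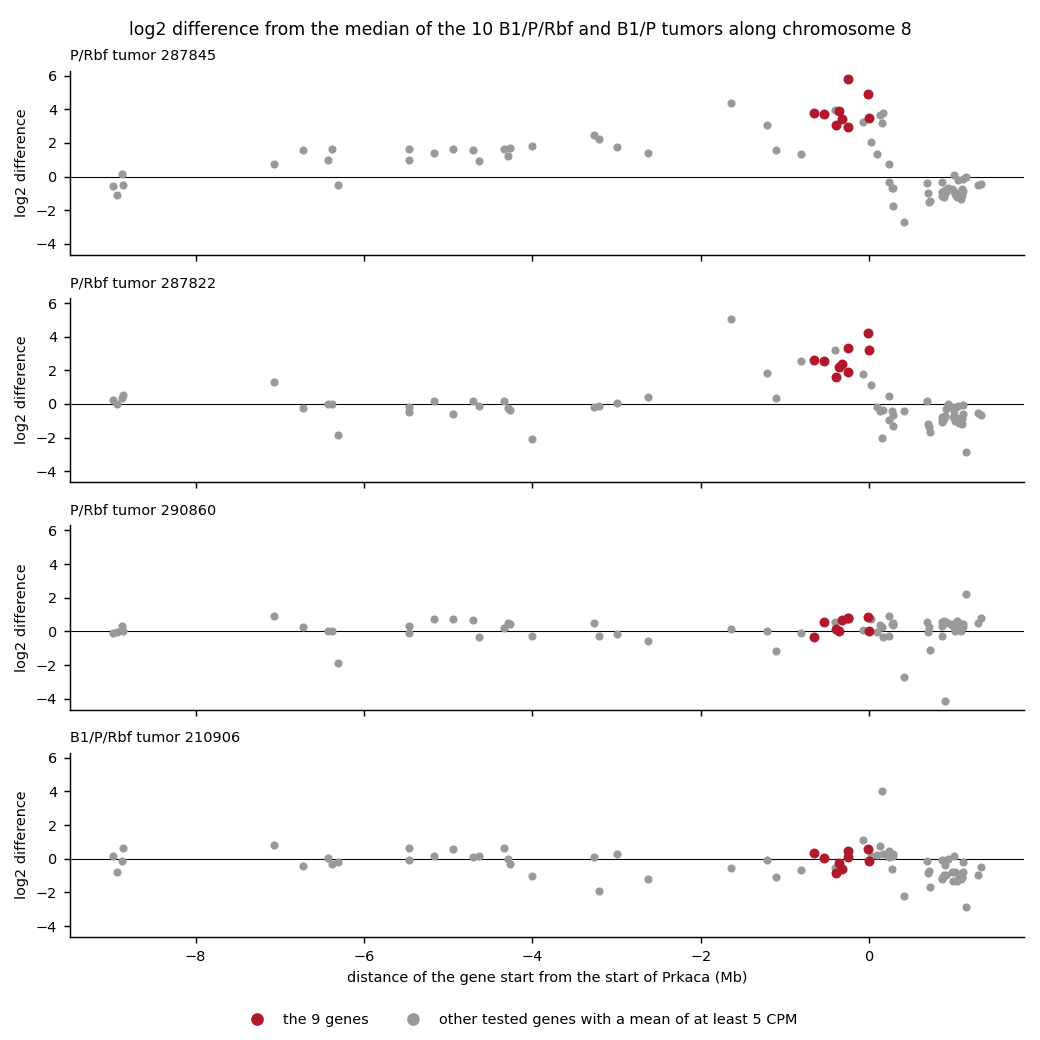
Each panel shows 1 tumor, with the log2 difference from the median of the 10 Brca1-floxed tumors for 75 tested genes averaging 5 CPM or more, by distance of the gene start from that of Prkaca in Mb; red points are the 9 genes. The 9 genes form the highest block in 287845 and 287822 (medians 3.72 and 2.58), further to their left the 26 genes Arhgap10 to Inpp4b are raised in 287845 (median 1.43) and not in 287822 (-0.20), and P/Rbf tumor 290860 and B1/P/Rbf tumor 210906 show no such block.

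A window of 15 consecutive tested genes was moved along every chromosome in each tumor. The highest window over all chromosomes was Elmod2 to Asf1b in 287845 (median log2 difference 3.72) and the same window in 287822 (2.40). In the 13 other tumors the highest windows, with medians of 2.16 to 5.06, lay on other chromosomes. Other tumors thus had raised runs of neighboring genes too, in other places, while over these 9 genes their medians stayed at or below 0.53.

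**Figure D3:**
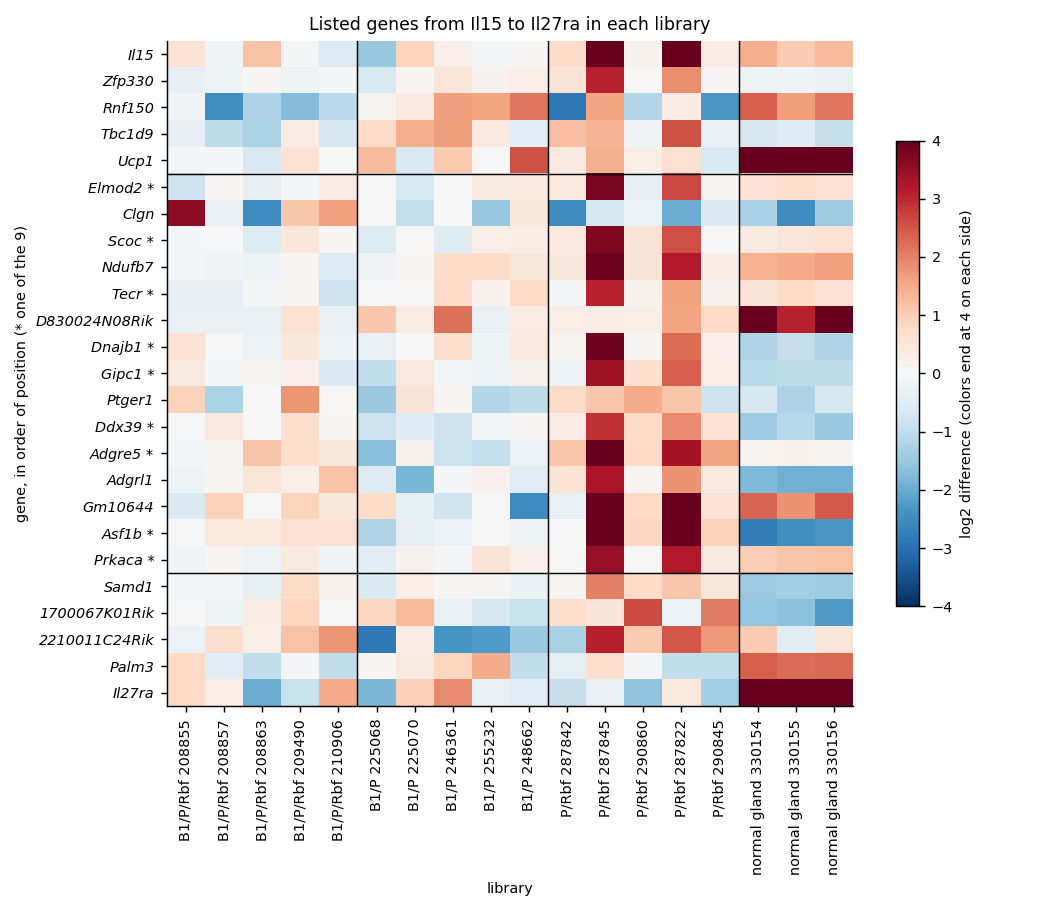
Rows are genes from Il15 to Il27ra in order of position (lines mark Elmod2 to Prkaca, stars the 9 genes), columns the 18 libraries, and colors the log2 difference, ending at 4 on each side. The columns of P/Rbf tumors 287845 and 287822 are red from Elmod2 to Prkaca except at the barely expressed Clgn and, in 287845, D830024N08Rik.

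Across the 15 tumors the log2 CPM of the 9 genes moved together, with a median Pearson r of 0.90 over 36 pairs (0.74 to 0.96). Without 287845 and 287822 the median fell to 0.26 (-0.54 to 0.85), with 10 pairs over 0.5 and 8 below 0, and over the 10 Brca1-floxed tumors it was 0.27. The joint movement therefore rests on these 2 libraries. Their values chose the genes, so nothing is read from the r over the 15 tumors. The points share library depth and scaling. Of 12578 genes outside the stretch averaging 5 CPM or more, the pattern most like the mean of the 9 was that of Zfp330 (r = 0.96 over 15 tumors), a neighbor, followed by 4 genes of other chromosomes. Apba2, an adaptor protein gene, had r = 0.94, with 177 and 136 CPM against at most 0.452 in the 13 other tumors. Got1, the cytosolic aspartate aminotransferase, also had r = 0.94, with 515 and 353 CPM against 9.87 to 42.7 in the other tumors. Uck2, a uridine-cytidine kinase (r = 0.93), had 1078 and 411 CPM, and Chp1, a calcineurin-like protein (r = 0.92), had 425 and 271.

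The comparisons that do not use P/Rbf tumors take their fold changes from libraries that did not choose the genes, while the spread they are tested against is estimated over all 18 libraries. They were tested by edgeR's quasi-likelihood test with Benjamini-Hochberg adjustment. With T121 added to Brca1 and Trp53 loss (B1/P/Rbf against B1/P), 0 of the 9 genes passed at 0.05, where 7.36% of tested genes were higher and 9.29% lower. None of the 9 had an unadjusted p under 0.05, and DESeq2, which called 23.0% of all tested genes, called 0 as well. The median log2 fold change was 0.08, against -0.06 over all genes tested. Asf1b was the 1 gene of the 9 whose groups did not overlap, which held for 10.5% of all tested genes. It had 48.3 ± 7.42 CPM in B1/P/Rbf against 28.0 ± 7.48 in B1/P (SD, n = 5 each), with a log2 fold change of 0.79 (SE 0.68, edgeR adjusted p = 0.455). Adgre5 had 111 ± 38.6 against 51.5 ± 24.2 CPM (log2 fold change 1.11, SE 0.73, edgeR adjusted p = 0.321). Prkaca had 76.9 ± 12.6 against 82.4 ± 20.2 CPM (log2 fold change -0.10, SE 0.55, edgeR adjusted p = 0.926).

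For these genes the estimate of the spread holds the 2 high P/Rbf tumors, which did choose the genes, so these tests were not independent of the choice. Chosen after the data were seen, a fit without them left the fold changes as they were and shrank the SE: Asf1b went from 0.68 to 0.24. In that fit edgeR called 3 genes higher in B1/P/Rbf when set against B1/P, where 8.56% of 19067 genes were higher, and 1 lower, where 10.9% were. The higher genes were Adgre5 (1.11, SE 0.31, edgeR adjusted p = 0.0225), Asf1b (0.79, SE 0.24, edgeR adjusted p = 0.0295) and Ddx39 (0.65, SE 0.21, edgeR adjusted p = 0.0413). Tecr was lower (-0.64, SE 0.21, edgeR adjusted p = 0.0402), and Prkaca stayed at -0.10 (SE 0.18, edgeR adjusted p = 0.738). With the libraries of the 2 compared groups alone, edgeR called 1 higher, Asf1b, where 5.86% of 16542 genes were, and 0 lower, where 6.46% were.

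Against normal gland, B1/P/Rbf tumors had 2 of the 9 genes higher, where 17.1% of tested genes were higher, and 0 lower, where 20.0% were. Asf1b rose by 2.95 log2 units (SE 0.89, edgeR adjusted p = 0.0157), from 6.23 ± 0.941 CPM in glands (SD, n = 3) to 48.3 ± 7.42 CPM. Ddx39 rose by 1.59 (SE 0.49, edgeR adjusted p = 0.0173), from 36.1 ± 5.51 to 108 ± 23.2 CPM. The Asf1b call was lost when any 1 gland was left out, or with a term for 2 inferred library sets (edgeR adjusted p = 0.0776), and the Ddx39 call without gland 330154 or 330156; the highest edgeR adjusted p with 1 library left out was 0.0626 for Asf1b and 0.068 for Ddx39. For 7 of the 9 genes the groups did not overlap, as for 50.5% of all tested genes. The fit without 287845 and 287822 called 4 higher (18.5% of genes) and 3 lower (21.4%): besides Asf1b and Ddx39, Dnajb1 rose (1.24, edgeR adjusted p = 0.00139) and Gipc1 rose (1.07, edgeR adjusted p = 0.0096), while Prkaca (-1.07, edgeR adjusted p = 0.000778), Tecr (-0.89, edgeR adjusted p = 0.0072) and Elmod2 (-0.74, edgeR adjusted p = 0.0396) fell.

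B1/P tumors against gland gave 0 of 9 calls, where 16.8% of tested genes were higher and 16.9% lower. One gene, Asf1b, had an unadjusted p under 0.05 (log2 fold change 2.17, SE 0.86, edgeR adjusted p = 0.0602), and DESeq2, which called 39.0% of all tested genes, called it. Leaving out any one of P/Rbf tumors 287842, 287845, 290860 and 290845 made Asf1b pass in edgeR. For 7 of the 9 genes the groups did not overlap here as well, against 41.4% of all tested genes. Without 287845 and 287822 edgeR called 4 higher (18.4% of genes), Asf1b, Ddx39, Dnajb1 and Gipc1, and 1 lower (18.2%), Prkaca, which had a log2 fold change of -0.97 (edgeR adjusted p = 0.00185). Prkaca had 162 ± 10.2 CPM in glands against 82.4 ± 20.2 in B1/P tumors, and each of the 10 Brca1-floxed tumors was below every gland.

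**Figure D4:**
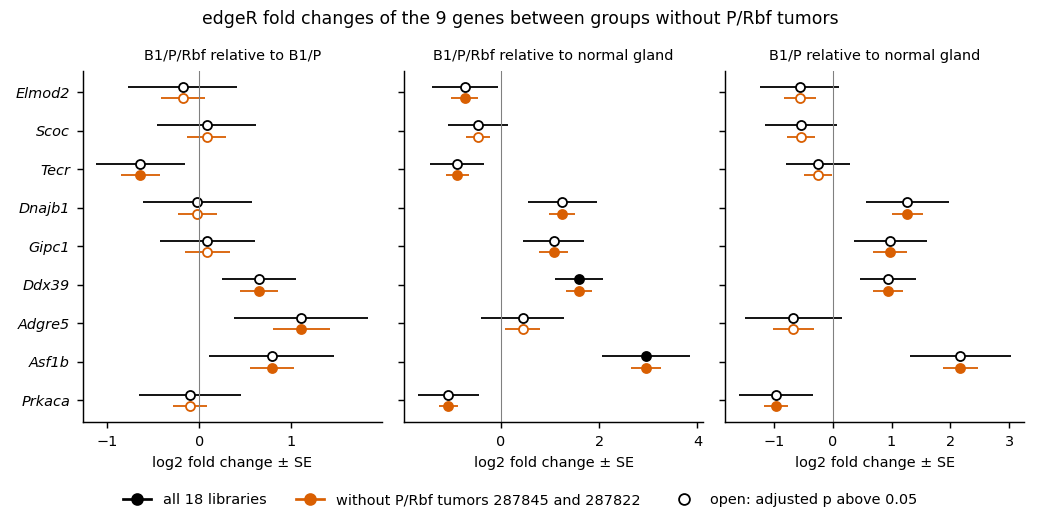
Points are log2 fold changes of the 9 genes with bars of 1 SE in the 3 comparisons without P/Rbf tumors, in black from all 18 libraries and in orange without P/Rbf tumors 287845 and 287822; filled points have an edgeR adjusted p of 0.05 or less. The points of both fits coincide, while the orange bars are shorter, and the filled points go from 0, 2 and 0 to 4, 7 and 5.

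The fold changes of the P/Rbf group are a description with no test. Relative to B1/P the 9 log2 fold changes were 1.18 (Tecr) to 4.44 (Adgre5), with the ranges of the groups apart for Ddx39, Adgre5 and Asf1b, as for 8.86% of all tested genes. These P/Rbf values chose the genes, so nothing is read from that count. Without 287845 and 287822 the log2 fold change relative to B1/P was 1.79 for Adgre5, 1.00 for Asf1b and 0.96 for Ddx39, whose other 3 P/Rbf tumors also lay above every B1/P tumor, and -0.30 to 0.39 for the 6 other genes. Relative to B1/P/Rbf, P/Rbf was higher by a median of 2.19 log2 units, and by 0.25 without 287845 and 287822, when Dnajb1 was at -0.02 and the others at 0.12 to 0.68. These comparisons share their P/Rbf libraries.

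Per kilobase of exon the order of levels among the 9 genes was not the same in gland and tumor. In glands Tecr was highest (mean 102 CPM per kb), then Prkaca (65.0), Adgre5 (21.8), Gipc1 (20.3), Scoc (12.4), Dnajb1 (10.0), Ddx39 (7.00), Elmod2 (4.44) and Asf1b (2.66). In B1/P/Rbf tumors Tecr (55.3) and Gipc1 (42.6) led, with Prkaca at 30.9 and Asf1b at 20.7, and in B1/P tumors Tecr (86.4) was followed by Gipc1 (39.9) and Prkaca (33.1). Elmod2 was among the 2 lowest in glands and lowest in B1/P/Rbf and B1/P tumors (2.66 and 3.02).

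Prkacb, the other catalytic PKA gene of these tissues, lies on another chromosome. It was at 79.5 CPM in 287845 and 35.8 in 287822, against 51.7 to 65.1 in the other P/Rbf tumors, 48.6 to 90.7 in B1/P/Rbf and 91.1 to 154 in B1/P. Per kilobase, Prkaca made 97.4% of the Prkaca and Prkacb sum in 287845 and 98.6% in 287822, against 65.8% to 87.6% in the 16 other libraries. Prkar1a, which had the highest CPM of the 4 regulatory subunit genes in both tumors, was at 441 and 413 CPM, within or just above the 261 to 423 CPM of the 10 other tumors. Prkar2a had 69.7 and 88.8 CPM (34.7 to 142 in the 10) and Prkar2b 39.9 and 45.7 (10.4 to 55.3). Prkar1b, a low gene in these tumors, had 2.96 and 1.63 CPM, against 2.34 to 34.7 in B1/P/Rbf and 8.32 to 45.6 in B1/P. All 4 regulatory subunit genes were thus less than 1 log2 unit above the median of the 10 in both tumors, where Prkaca was 3.48 and 3.20 above it.

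A list of 43 genes of cyclic AMP and PKA signaling, without Prkaca, was tested in the same edgeR fit. Set against B1/P, B1/P/Rbf had 4 genes higher, where 7.36% of all tested genes were, and 6 lower, where 9.29% were. The median log2 fold change was -0.20 against -0.06 over all genes. With each library left out in turn, the list had 5 to 10 calls. Prkacb fell by 0.78 on the log2 scale (edgeR adjusted p = 0.0243) and the PKA inhibitor Pkia fell by 2.64 (edgeR adjusted p = 0.0161), while the inhibitor Pkig rose by 0.81 (edgeR adjusted p = 0.0463). Of the adenylyl cyclase genes, Adcy1 and Adcy8 were called in opposite directions, Adcy1 up by 5.18 (edgeR adjusted p = 0.0012) and Adcy8 down, from 15 to 183 counts per library in B1/P to 0 to 1 in B1/P/Rbf (edgeR adjusted p = 0.00027). The anchoring protein gene Akap6 was at -3.49 (edgeR adjusted p = 0.0201) and the phosphodiesterase gene Pde7b at -2.71 (edgeR adjusted p = 0.00528).

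P/Rbf relative to B1/P tumors had 4 of the 43 genes higher, where 8.43% of all tested genes were, and 9 lower, where 10.8% were. The calls numbered 8 to 14 when each library was left out in turn. Prkacb was at -1.15 (edgeR adjusted p = 0.00318), Prkar1b at -3.29 (edgeR adjusted p = 0.00451) and Pkia at -3.86 (edgeR adjusted p = 0.00267). Adcy8 (0 to 2 counts), Adcy1 (5.01) and Pde7b (-3.30) went as in B1/P/Rbf, a comparison that shares the B1/P tumors. Prkar1a (0.18), Prkar2a (0.28), Prkar2b (1.18), Pkib (-0.86) and Pkig (0.37) did not pass. Per tumor, the median log2 difference of the 43 genes was -0.05 in 287845 and -0.12 in 287822. In 287845, 8 were at least 1 higher (11.4% of all tested genes) and 8 at least 1 lower (17.1%). In 287822 it was 7 higher (12.8%) and 12 lower (16.3%). B1/P/Rbf relative to P/Rbf tumors had 0 of 43 calls by edgeR, where 0.219% of tested genes were higher and 0.0625% lower, with 8 at an unadjusted p under 0.05 and 4 calls by DESeq2, which called 5.29% of all tested genes.

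A list of 10 genes known as CREB targets was tested as well. By edgeR 1 was higher and 1 lower in each of the T121 groups relative to B1/P, where all tested genes had 7.36% higher and 9.29% lower (B1/P/Rbf) and 8.43% and 10.8% (P/Rbf). By edgeR Fos rose by 1.13 in B1/P/Rbf (adjusted p = 0.00771) and 1.54 in P/Rbf (adjusted p = 0.00135), and Nr4a1 was at -2.86 (adjusted p = 0.00228) and -2.03 (adjusted p = 0.0124). The group values hide the tumors: the list's median log2 difference was 1.65 in 287845 and 1.08 in 287822, and -0.17, -0.56 and -0.51 in 287842, 290860 and 290845. In the Brca1-floxed tumors it was -0.37 to 0.71, the highest in B1/P tumor 248662. At least 1 higher were 7 of the 10 genes in 287845 (11.4% of all tested genes), 5 in 287822 (12.8%) and 5 in 248662 (12.0%). In each of these tumors 1 gene was at least 1 lower (17.1%, 16.3% and 9.77%). In the glands the list's median was 0.95, 1.14 and 1.29, so 287845 was above the glands and 287822 within their range. The glands had 5, 5 and 6 genes at least 1 higher (24.1%, 23.7% and 24.6%) and 0 lower (18.2%, 17.7% and 19.3%). Ppargc1a, the coactivator of mitochondrial genes, was at 231 CPM in 287845 and 138 in 287822, against 1.24 to 5.44 in the other P/Rbf tumors, 0.108 to 5.43 in B1/P/Rbf, 7.19 to 31.9 in B1/P and 15.9 to 30.0 in glands. Sik1, a salt-inducible kinase gene, was at 430 and 759 CPM, against 46.8 to 51.1, 90.4 to 187, 54.2 to 191 and 81.0 to 116 in these groups. Nr4a3, an orphan nuclear receptor gene, was at 5.39 and 20.5 CPM, against 0.374 to 0.633, 0.659 to 2.16 and 1.06 to 3.49 in the tumors. The glands had 4.30 to 11.5 CPM of it, a range that holds the value of 287845. Areg went the other way, with 16.3 and 23.6 CPM against 90.2 to 245 in the other P/Rbf tumors, and Per1 at 88.3 and 94.8 CPM lay within the 28.6 to 137 CPM of the 10.

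**Figure D5:**
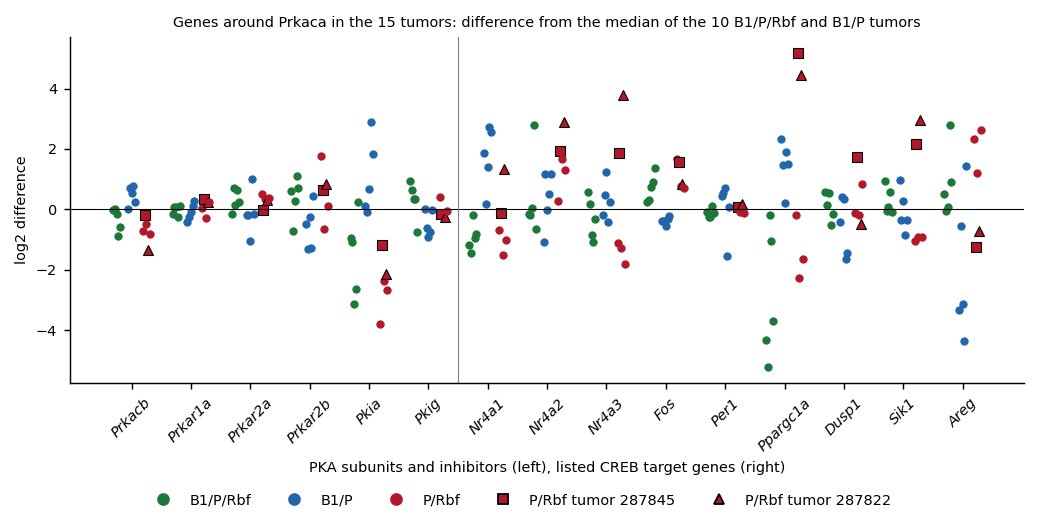
Points are the 15 tumors, with the log2 difference from the median of the 10 Brca1-floxed tumors for 6 PKA subunit or inhibitor genes and 9 listed CREB targets (Pck1, at most 6.95 CPM in tumors, is left out); the square is P/Rbf tumor 287845 and the triangle 287822. Both stand above all other tumors at Nr4a3, Ppargc1a and Sik1, while at Prkacb the triangle is lowest and at Prkar1a the square is just above the rest.

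The lists around the other genes were read relative to B1/P tumors, where B1/P/Rbf had 7.36% of all tested genes called up and 9.29% down, and P/Rbf 8.43% up and 10.8% down. A count of 1 gene in lists this short is near those shares. Of 17 histone deposition genes, partners of Asf1b, 3 were higher in B1/P/Rbf and 4 in P/Rbf and 0 lower, among them Chaf1b (1.14 and 0.97), Rbbp4 (1.15 and 0.96) and Hat1 (0.94 and 0.97). The 14 proliferation genes had 6 and 7 higher, led by Mcm4 (1.38) in B1/P/Rbf and Top2a (1.34) in P/Rbf. Of 19 HSF1 and HSP70 chaperone genes around Dnajb1, 1 was higher and 2 lower in B1/P/Rbf and 2 higher and 2 lower in P/Rbf. Hspb1 was at -2.15 and -2.69 and Dnajb4 at 1.09 and 1.00. Per tumor, the median log2 difference in 287845 and 287822 was 0.12 and 0.06 for histone deposition and -0.24 and -0.56 for chaperone genes. The proliferation genes had 0.69 and 0.84. For the lists below, medians were -0.01 (Elmod2 and Scoc) to 0.67 (Tecr) in 287845. In 287822 they were -0.28 (Elmod2 and Scoc) to 0.34 (Gipc1).

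Of 11 tested fatty acid elongation genes around Tecr, Elovl3 was lower in both groups (0 counts in all 10 libraries, against 0 to 51 in B1/P, with 1 B1/P library at 0) and Hacd3 higher in B1/P/Rbf (1.35), while Hacd1 was lower in P/Rbf (-2.11). Of 14 mRNA export genes around Ddx39, 0 passed in either comparison by edgeR or by DESeq2 (which called 23.0% and 26.2% of all tested genes), with 0 and 1 at an unadjusted p under 0.05. Of 7 genes around Gipc1, Tgfbr3 was lower in both (-4.21 and -4.29), Nrp1 higher (1.50) and Igf1r lower (-3.69) in B1/P/Rbf, and Gipc3 higher in P/Rbf (3.18). Gipc3 was at 18.5 CPM in 287822 and at 0.201 to 2.86 CPM in the other P/Rbf tumors, against 0.377 to 0.725 in B1/P, so 1 tumor was far above the rest and 287842 was below every B1/P tumor. Igf1r, the IGF1 receptor gene, was at 1049 CPM in 287845 and 497 in 287822 against 7.05 to 43.1 in the other P/Rbf tumors and 3.89 to 196 in the 10. Of 6 genes around Adgre5, Thy1 was lower in both (-1.27 and -1.12), with Itgav higher (1.03) and Adgre4 lower (-2.98) in P/Rbf. Of 8 tested genes around Elmod2 and Scoc, Arl3 (-0.84 and -1.05) and Elmod3 (-0.73 and -0.87) were lower in both, and Arl2 (-0.94) and Fez1 (-1.93) in P/Rbf.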

How the data were processed

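RNA-seq libraries of 15 tumors and 3 glands were read from 1 table of gene-level estimated counts that the authors made with RSEM 1.3.0, per the labels after FastQC 0.11.5, cutadapt 1.18 and Picard 1.119; DESeq2 1.28.1 is also named there. The deposited expected counts are not normalized, and 5.61% of values are not whole, so they were rounded. A human reference is named in the methods of the study. All 55450 identifiers match the mouse GENCODE M21 annotation (GRCm38), which was used here for positions. The library kit is stranded, and whether counting used strand is not given in the sources used here. Genes were kept by filterByExpr (minimum count 10), scaled by TMM and fitted with edgeR 4.0.16 (limma 3.58.1, R 4.3.3) over all 18 samples with genotype as the only term; a call needs a p of at most 0.05 after Benjamini-Hochberg adjustment. P-values set the difference between groups against the spread between these libraries. Levels are CPM after TMM, and log2 CPM has a prior count of 2. Differences per tumor are from the median of the 10 B1/P/Rbf and B1/P tumors. The tests were tried on simulated counts with 200 changed genes.

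The 9 genes and all lists were chosen with earlier results of these data known. Named genes are the 9, the other tested genes between Elmod2 and Prkaca, 5 on each side, the 5 most alike elsewhere, PKA subunits and inhibitors, and up to 4 called genes per list. Other genes named (partners, relatives, markers, CREB targets and shared genes) were chosen after their values were seen. Alternatives were DESeq2 1.42.0, limma-voom with quantile normalization, no TMM, other filters, only the groups compared, a term for 2 inferred library sets, other references for the differences and leaving out each library. Columns of no sample in the table numbered 0. No protein sequences were used here, and 1 gene of the stretch is counted but not reported by name.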

Additional observations from a re-analysis of the deposited data

How the results depend on the processing

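The differences of the 9 genes in 287845 and 287822 kept their direction under another prior count, no TMM, quantile scaling and 2 other references, with medians of 3.51 to 4.37 and 2.54 to 3.27. The counts of calls did not hold as well. Shares in parentheses are of all genes tested in the same fit. For B1/P/Rbf against B1/P, 0 of 9 genes passed (16.7%), 1 with only the groups compared (12.3%), 4 without 287845 and 287822 together (19.4%; chosen after the data were seen), and 0 with each library left out. Between B1/P/Rbf tumors and gland it was 2 (37.0%), 1 with a filter at log2 CPM 6 in 6 samples (38.7%; 6 of the 9 tested), 1 with a term for 2 library sets (20.2%), 7 with only the groups compared (48.8%), 7 without the 2 tumors (39.8%), and 0 to 3 with each library left out. Between B1/P tumors and gland it was 0 (33.8%), 1 by DESeq2 (39.0%), 2 without TMM (39.4%), 5 with only the groups compared (35.9%), 5 without the 2 tumors (36.6%) and 0 to 3 with each library left out. The fits with 4 or more calls leave the 2 high tumors out of the estimate of the spread, and their SE is smaller. The cause of the other changes was not tested. The cyclic AMP list had 5 to 10 calls for B1/P/Rbf against B1/P with each library left out (5 without B1/P 255232, 14.5%). For P/Rbf against B1/P it had 13 (19.2%), 7 with only the groups compared (9.30%) and 8 to 14 with each library left out (8 without B1/P 255232 or P/Rbf 287822, 16.4% each). For B1/P/Rbf against P/Rbf it had 0 (0.281%), 4 by DESeq2 (5.29%) and 0 to 1 with each library left out. The median log2 fold change of the 9 genes in P/Rbf relative to B1/P/Rbf was 1.27 to 2.45 with each library left out and 0.25 without the 2 tumors. No paired analysis was possible because the groups share no mouse numbers. Depth limits Clgn and D830024N08Rik, below 1 CPM in most tumors.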

Other observations

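P/Rbf tumors 287845 and 287822 also shared high genes beyond chromosome 8. A gene was counted for a pair of tumors when both had at least 5 CPM and both were at least 4-fold above each of the 13 other tumors. This pair had 28 such genes, against a median of 0 and at most 8 in the 104 other pairs. The 9 other P/Rbf pairs had at most 2. Over all tested genes the 2 tumors were not set apart. Their log2 CPM had a Pearson r of 0.944, against 0.909 to 0.951 in the 9 other P/Rbf pairs. Of the 28, 9 were on chromosome 8 and 19 on 10 other chromosomes. Among them were 3 cyclic nucleotide phosphodiesterase genes, Pde10a (124 and 102 CPM against at most 5.81), Pde3b (119 and 78.9 against at most 13.2) and Pde8a (83.8 and 64.3 against at most 14.9). Others encode signals or receptors, such as Lepr, the leptin receptor (521 and 305 against at most 14.8), Il33, an alarmin cytokine (1333 and 1390 against at most 236), and Tnfsf11, or RANKL (19.9 and 39.4 against at most 1.81). This count was chosen after the values were seen and has no test. The genes named were picked from the 28 in the same way, so nothing is read from them about their families. The labels give the 2 tumors separate numbers and do not say whether they are related. If they were, the values of both might not be independent observations. This was not tested.

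Beside Il15, some genes of cytotoxic lymphocytes were read in the same tumors. Gzmb was at 16.1 CPM in 287845 and 28.6 in 287822 against 0.0954 to 8.22 in the 13 other tumors, and Klrb1c at 1.14 and 4.13 against 0.034 to 0.977. Prf1 (0.883 and 1.42), Nkg7 (3.28 and 6.37), Cd8a (5.39 and 5.97) and Cd3e (1.77 and 2.16) were not set apart in both. Ncr1, another natural killer gene, was at 0.284 and 2.00 CPM against at most 0.358, so it was high in 287822 alone. These genes were picked after Il15 was seen.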
